A study of Saccharomyces cerevisiae with 6 samples.

Results

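The genes described here are 9 budding yeast genes that make, break down or interconvert glycerol and related carbonyl compounds: the glycerol-3-phosphate dehydrogenase genes GPD1 (YDL022W) and GPD2 (YOL059W), the glycerol phosphatase genes GPP1 (YIL053W, listed on the platform by its older name RHR2) and GPP2 (YER062C, also HOR2), the glycerol dehydrogenase gene GCY1 (YOR120W), the dihydroxyacetone kinase genes DAK1 (YML070W) and DAK2 (YFL053W), and the aldo-keto reductase genes YPR1 (YDR368W) and ARA1 (YBR149W). They were taken by name from a list chosen by the log ratios of these same arrays, in which GCY1 had stood out. Of the 9 genes, 8 matched a spot and 6 were measured on all 3 hybridizations, out of 5365 named genes, 3642 of them so measured. GPD1 had a value on 2 hybridizations, DAK2 on 1, and no spot was matched to GPP2.

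Cells of Saccharomyces cerevisiae strain S288C, a laboratory strain for which the labels give no added mutation, were grown in rich glucose medium at 25 °C. Chloroacetaldehyde, a chlorinated aldehyde that reacts with thiols and with nucleic acid bases, was added to a final 25 ppm at an optical density of 1, and cells were taken 2 h later. Their polyadenylated RNA, labelled with Cy5, was hybridized on cDNA arrays against Cy3-labelled RNA of cells at the same optical density before the addition. The comparison was made on 3 independent biological samples, called replicates 1 to 3, with a high-power and a low-power scan of each array.

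Values are log ratios of exposed cells over cells before exposure, averaged over both scans of a hybridization where both had a value. The sources used here name neither the log base nor the direction. Base 2 was assumed. Exposed over before is the likely direction, because the exposed RNA is the first channel in the labels. With the opposite direction all signs would turn, and folds hold only for base 2. The earlier cells were not a parallel untreated culture, and dye order was the same on every array, so exposure, 2 h of further growth and dye cannot be told apart. A ratio of bulk RNA also does not separate a change in every cell from a change in the share of cells carrying the transcript.

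Yeast makes glycerol from the glycolytic intermediate dihydroxyacetone phosphate. Gpd1 and Gpd2 reduce it to glycerol-3-phosphate with NADH, and Gpp1 and Gpp2 then remove the phosphate. The route balances osmotic pressure under salt or sugar stress, when the kinase Hog1 induces GPD1 and GPP2, and it reoxidizes NADH when respiration is low, a task in which GPD2 and GPP1 are the main isoforms. A second route runs the other way: Gcy1 is thought to oxidize glycerol to dihydroxyacetone with NADP+, and Dak1 or Dak2 phosphorylates dihydroxyacetone and so returns it to glycolysis. Gcy1, Ypr1 and Ara1 are aldo-keto reductases, NADPH-dependent enzymes that reduce many aldehydes and ketones.

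GCY1 and GPP1 lay at opposite ends of the set. On replicates 1, 2 and 3 GCY1 had log2 ratios of 1.52, 0.57 and 1.36, all higher in exposed cells, and GPP1 had -1.40, -0.77 and -0.93, all lower. Among the 6 genes measured on all 3 hybridizations, GCY1 was the highest and GPP1 the lowest each time. The gap between them was 2.91, 1.34 and 2.29, with a mean of 2.18 ± 0.79 on the log2 scale (SD, n = 3, as for every mean below).

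**Figure D1:**
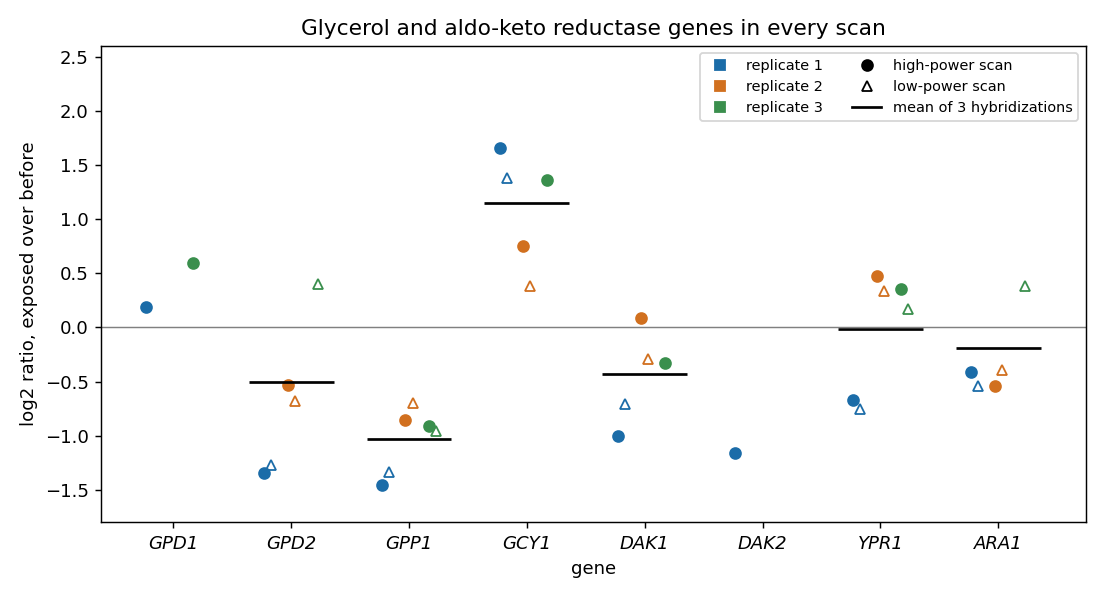
Log2 ratios of exposed over before (vertical axis) for the 8 genes with a spot, by replicate (colour) and scan (filled circles high power, open triangles low power), with a bar at the mean of the 3 hybridizations for the 6 genes measured on all of them. GCY1 lies above 0 and GPP1 below 0 in every scan that has a value, while GPD2, DAK1, YPR1 and ARA1 have scans on both sides of 0.

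These genes were chosen with this comparison in view, so their values are a description and no test is read from them. Across all genes measured on all 3 hybridizations, limma with Benjamini-Hochberg adjustment called 2 of 3642, or 0.0549% (threshold 0.05), with 0.0275% higher and 0.0275% lower, and 0 of the 6 genes here were among them. The same sign on all 3 hybridizations was seen in 3 of the 6 (GCY1, GPP1 and DAK1), against 27.5% of all genes.

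Of the enzymes that form glycerol-3-phosphate, GPD2, the isoform tied to NADH reoxidation, had -1.31, -0.60 and 0.40 on replicates 1, 2 and 3. It was lower in exposed cells on 2 hybridizations and higher on the third, where only the low-power scan gave a value. Its mean was -0.50 ± 0.86, the largest spread of the set: 93.1% of all genes had a smaller SD. The mean was -0.96 without replicate 3 and -0.10 without replicate 1. GPD1, the osmotically induced isoform, had 0.19 on replicate 1 and 0.60 on replicate 3, each from the high-power scan alone, and no value on replicate 2. GPD1 was above GPD2 by 1.53 in the high scan of replicate 1. On replicate 3, where GPD1 had the high scan and GPD2 the low scan alone, the gap was 0.20. Scans of the same gene of the set differed by up to 0.38, so the gap on replicate 3 shows no difference. The values of this pair are too few for a mean with an error.

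GPP1, which encodes the phosphatase that releases glycerol, had the lowest mean of the set at -1.04 ± 0.33, or 2.05-fold lower in exposed cells. All of its 6 scans held a value and all were negative, from -1.46 in the high scan of replicate 1 to -0.70 in the low scan of replicate 2. Its ratio exceeded that of 0.487%, 7.16% and 1.87% of the genes measured on replicates 1, 2 and 3, so it was in the low tail each time. By the mean, 15 of 3642 genes lay below it. A mean of -1 or less with all 3 values negative was found for 0.357% of all genes. Another 6 genes were at or below -0.77, the highest GPP1 value, on all 3 hybridizations, a cut-off set by GPP1 itself. GPP1 was the steadiest of the 6 genes by SD, and leaving out each replicate in turn gave means from -1.17 to -0.85.

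GCY1, whose product oxidizes glycerol and reduces aldehydes, had the only positive mean of the 6 genes, at 1.15 ± 0.51, or 2.22-fold higher in exposed cells. Its 5 scans with a value ran from 0.38, in the low scan of replicate 2, to 1.65, in the high scan of replicate 1. The low scan read below the high scan by 0.28 on replicate 1 and by 0.37 on replicate 2, and replicate 3 had the high scan alone. Its ratio was above that of 99.4%, 87.8% and 98.9% of the genes on replicates 1, 2 and 3. Replicate 2 was thus the weakest for GCY1, as it was for GPP1. By the mean, 21 genes lay above it, and 30 other genes were at or above its lowest value, 0.57, on all 3 hybridizations. A mean of 1 or more with all 3 values positive was found for 0.906% of all genes. Leaving out each replicate gave means from 0.96 without replicate 1 to 1.44 without replicate 2.

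**Figure D2:**
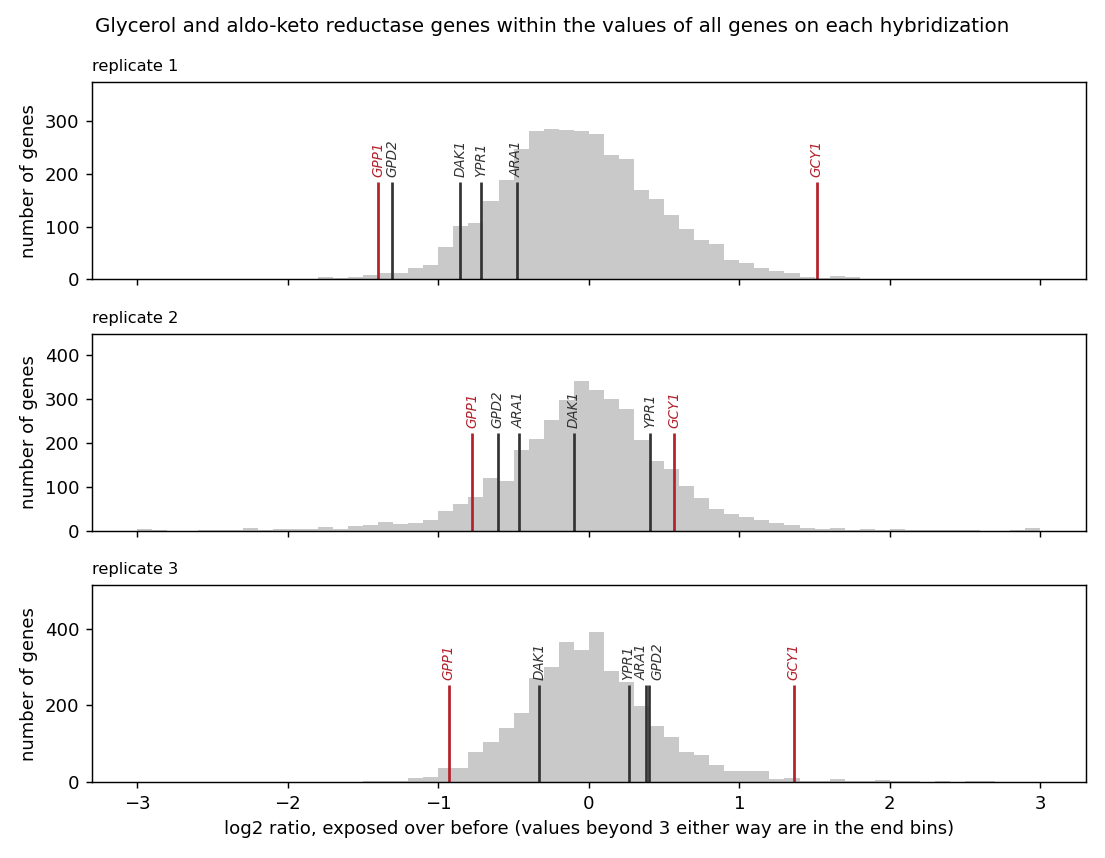
Histograms of the log2 ratios of the 3642 genes measured on all 3 hybridizations (horizontal axis, number of genes per bin on the vertical axis), one panel per replicate, with the 6 measured genes marked by lines. GCY1 and GPP1 (red) are the outermost lines in each panel, and the other 4 genes lie left of the centre on replicate 1 and on both sides of it on replicates 2 and 3.

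The kinase genes that follow GCY1 on the route from glycerol had no positive value on any hybridization. DAK1 had -0.85, -0.10 and -0.33 on replicates 1, 2 and 3, lower each time, with a mean of -0.43 ± 0.39. On replicate 2 its scans differed in sign, at 0.09 in the high and -0.29 in the low scan. Without replicate 1 the DAK1 mean was -0.22. DAK2, its second copy, had a single value, -1.16 in the high scan of replicate 1, where DAK1 was higher by 0.15 in the same scan.

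YPR1, the closest relative of GCY1 in yeast, encodes a reductase of short and branched aldehydes. Its ratios were -0.72, 0.41 and 0.26 on replicates 1, 2 and 3, giving a mean of -0.01 ± 0.61. The sign of this mean is not settled: it was 0.03 once each hybridization was centred on its median and 0.34 without replicate 1. GCY1 was above YPR1 on every hybridization, by 2.23, 0.16 and 1.10, with a mean difference of 1.16 ± 1.04. On replicate 2 the gap was smaller than the difference between the scans of GCY1 itself, and without replicate 1 the mean gap was 0.63. A cDNA spot for one gene can bind RNA of a close copy, so a true difference between relatives such as these can be understated.

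ARA1, the gene of a dehydrogenase of arabinose and other sugars that also reduces dicarbonyl compounds, had -0.48, -0.46 and 0.38 on replicates 1, 2 and 3. The first pair of values agreed closely and the last had the opposite sign, again from the low-power scan alone. The mean was -0.19 ± 0.49, or -0.47 without replicate 3 and -0.04 without replicate 1.

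Repeat scans of the same array differed less than the arrays did. Of 14 gene values with both scans, 13 had the same sign in both, and the scans differed by 0.04 to 0.38. Over all genes the hybridizations correlated at 0.206 (1 and 2), -0.0537 (1 and 3) and 0.0698 (2 and 3), a description across 3642 genes that are not independent, while the scans of each array correlated at 0.925, 0.913 and 0.938. The median SD of a gene was 0.38.

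Replicate 1 held the lowest value of 5 of the 6 genes and the highest of GCY1. The median of the 6 genes was -0.79, -0.28 and 0.32 on replicates 1, 2 and 3, where all genes had -0.09, -0.01 and -0.02. The median of their means was -0.31, against -0.04 for all genes, and -0.07 without replicate 1. The enzymes that supply or compete for dihydroxyacetone phosphate also had their lowest values on replicate 1. The 5 genes of the aldolase, triose phosphate isomerase and glyceraldehyde-3-phosphate dehydrogenase steps had medians of -1.12, 0.13 and 0.46, and a median of means of -0.12 (0.26 without replicate 1, -0.21 without replicate 2 and -0.41 without replicate 3). TPI1, the isomerase gene, had -1.60, 0.06 and 0.70, and TDH3, the main dehydrogenase gene, had -1.29, 0.13 and 0.03. Of these 5 genes 0 passed the all-gene test in either direction, with 0 at an unadjusted p under 0.05, against 6.15% of all genes. Whether a property of replicate 1 had a part in the low values of both groups was not tested.

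Among genes of glycerol transport and use, those measured on all 3 hybridizations had means from -0.39 to 0.14. GUT1 and GUT2, the genes of glycerol use, were not among them. Of 8 listed, 5 were measured on all 3 hybridizations, 0 passed in either direction, and 0 had an unadjusted p under 0.05 (limma), against 6.15% of all genes. Their median was -0.14, or -0.01 without replicate 3 and -0.24 without replicate 2. ASK10 and RGC1, which encode the paired regulators that open the glycerol channel, had means of -0.39 ± 0.52 and -0.35 ± 0.45, with adjusted p = 0.886 and 0.887 by limma. The channel gene FPS1 had 0.14 ± 0.39. The glycerol kinase gene GUT1 had -0.25 and 0.15 on replicates 1 and 3. The mitochondrial glycerol-3-phosphate dehydrogenase gene GUT2 had only 0.31, and the glycerol importer gene STL1, a strong Hog1 target, only 0.04, both on replicate 1. FPS1, GUT1, GUT2 and STL1 are named for their role, after their values were seen.

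Components of the Hog1 pathway, which controls GPD1 and GPP2 under osmotic stress, mostly had small negative means. Of 21 listed, 13 were measured on all 3 hybridizations, 11 had a negative mean and 4 were negative on every hybridization, where 16.1% of all genes were. The median was -0.18, against -0.04 for all genes. None passed (0 higher, 0 lower), and 1 of the 13 had an unadjusted p under 0.05, close to the 6.15% of all genes. The gene under 0.05 was PTP2, which encodes a phosphatase that switches Hog1 off. It had 0.06, -1.68 and -0.71 and a mean of -0.78 ± 0.87 (adjusted p = 0.804, limma). SKO1, the gene of a transcription factor controlled by Hog1, had -0.44 ± 0.33 (adjusted p = 0.855).

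Targets of the pathway had means on both sides of 0. Of 15 listed, 10 were measured on all 3 hybridizations, 7 had a positive mean and 2 were positive each time, as were 11.5% of all genes; 0 passed in either direction and 2 had an unadjusted p under 0.05, against 6.15% of all genes. The median was 0.14, or 0.45 without replicate 2 and -0.02 without replicate 3, where 5 of the 10 had a positive mean. The pair under 0.05 were GRE2 and HSP12 (adjusted p = 0.117 and 0.149, limma). GRE2, the methylglyoxal reductase gene, had 1.95, 3.13 and 1.36. HSP12, the membrane stress protein gene, had 1.06, 1.40 and 2.59. Other stress factors also control genes of this list, the pair among them. CTT1, the cytosolic catalase gene, had -1.37, -1.31 and 1.39, and DDR2, a stress-induced gene, had 0.50, -0.13 and 2.62. Both are named after their values were seen, to show how widely a target could differ between arrays.

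**Figure D3:**
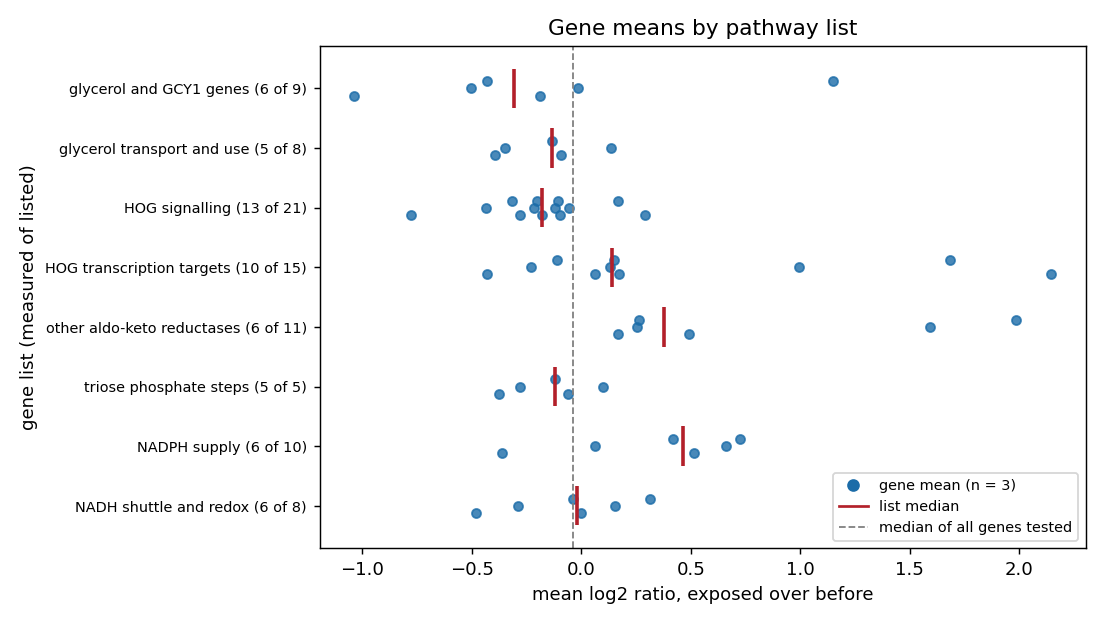
Mean log2 ratio of exposed over before (horizontal axis, n = 3 hybridizations) for each measured gene (points) of the glycerol and GCY1 genes and 7 related gene lists, with the list median (red bar) and the median of all genes tested (dashed line). List medians run from -0.31 for the glycerol and GCY1 genes to 0.47 for NADPH supply, and single genes spread more widely than the medians.

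Other aldo-keto reductases, counted apart from GCY1, YPR1 and ARA1, had positive means that depended in part on replicate 3. Of 11 listed, 6 were measured on all 3 hybridizations; all 6 had a positive mean (3 of 6 without replicate 3) and 3 were positive each time, as were 11.5% of all genes. The median was 0.38. None passed (0 higher, 0 lower), and 2 had an unadjusted p under 0.05, against 6.15% of all genes: the aryl-alcohol dehydrogenase genes AAD6, with 1.07, 3.08 and 1.81, and AAD3, with 1.20, 2.86 and 0.72 (adjusted p = 0.137 and 0.289, limma). Unlike GCY1, both were highest on replicate 2. AAD genes are close copies and may share signal. GRE3, the gene of the main aldose reductase and named for that role after its values were seen, had -0.43, -0.13 and 1.33, a mean of 0.25 ± 0.94. The list median was 0.16 without replicate 3 and 0.73 without replicate 1.

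Genes that supply NADPH, the electron donor of these reductases, had means from -0.36 for the transketolase gene TKL1, named after its value was seen, to 0.73 for ALD6. Of 10 listed, 6 were measured on all 3 hybridizations, 5 had a positive mean and 4 were positive each time, as were 11.5% of all genes. The median was 0.47, with medians of 0.16, 0.90 and 0.38 on replicates 1, 2 and 3. None passed (0 higher, 0 lower), and 2 had an unadjusted p under 0.05, against 6.15% of all genes. ALD6, which encodes the cytosolic acetaldehyde dehydrogenase, had 0.46, 1.31 and 0.41, a mean of 0.73 ± 0.50 (adjusted p = 0.682, limma). SOL3, a gene of the lactonase step of the pentose phosphate pathway, had 0.22, 1.18 and 0.59, a mean of 0.66 ± 0.48 (adjusted p = 0.769, limma). The list median was 0.19 without replicate 2, where 4 of the 6 had a positive mean.

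Genes of NADH shuttles and mitochondrial redox had a median of -0.02 over 6 measured of 8 listed, with 2 positive means. None passed (0 higher, 0 lower), and 0 had an unadjusted p under 0.05, against 6.15% of all genes. Of the 6, 2 were lower and 1 was higher on every hybridization, as were 16.1% and 11.5% of all genes. ADH3, the mitochondrial alcohol dehydrogenase gene, had -0.48 ± 0.38 and was lower on every hybridization, and POS5, the mitochondrial NADH kinase gene, had 0.32 ± 0.24 and was higher on every hybridization (adjusted p = 0.828 and 0.887, limma).

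The genes whose ratios were most like those of GCY1 were found by Euclidean distance over the 3 hybridizations, among the other 3641 genes. The nearest was LEE1, a zinc finger protein gene of unknown function, at a distance of 0.467, followed by the small membrane protein gene PMP3 (0.504), YNR064C (0.534), whose product is an epoxide hydrolase, the vesicle transport gene ERP4 (0.539) and the succinate dehydrogenase gene SDH2 (0.579). The median distance of all other genes was 2.29. All 5 had their lowest value on replicate 2, as GCY1 did, which the choice by distance favours. PMP3 had 1.02, 0.64 and 1.38, and YNR064C had 1.60, 1.09 and 1.32. None of the 5 is an aldo-keto reductase. With 3 arrays a short distance says only that the values are close.

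**Figure D4:**
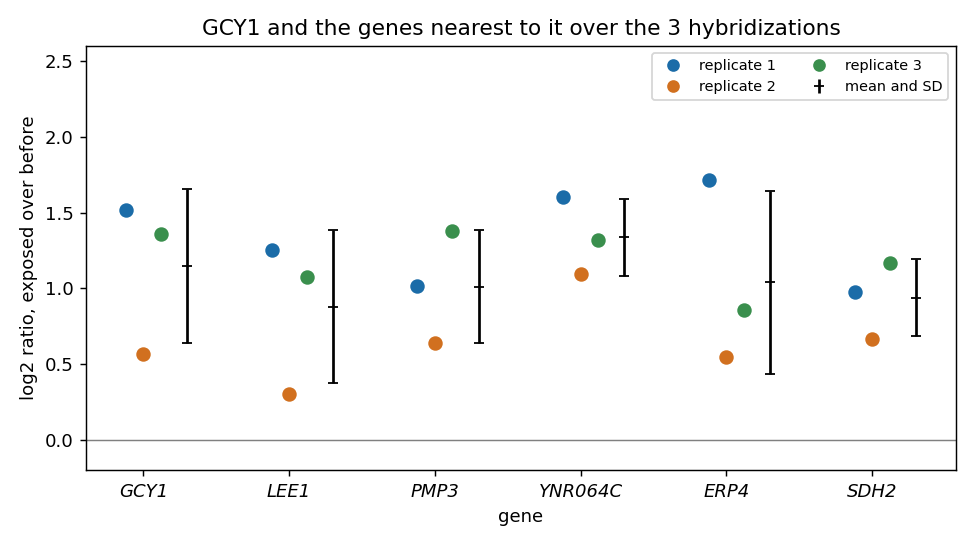
Log2 ratios of exposed over before (vertical axis) of GCY1 and the 5 genes nearest to it, by replicate (coloured points), with mean and SD (black, n = 3). All 6 genes are above 0 on every replicate and lowest on replicate 2. The 5 were chosen for values close to those of GCY1, so this likeness is no separate result.

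Genes next to the 9 along the chromosomes, by the R64 gene order, had means on both sides of 0 where measured. Of 18 neighbours 10 were measured on all 3 hybridizations, with means from -0.50 to 0.50, 6 of them positive, and 0 of the 18 overlapped a gene of the set. PFY1, the profilin gene beside GCY1, had 0.46, 0.08 and 0.48, of the same sign as GCY1 each time and also lowest on replicate 2. RPL34B, a ribosomal protein gene beside GPP1, had 0.58, 0.26 and 0.01, of opposite sign to GPP1 each time. Both were named after their values were seen. The other neighbour of GCY1 and that of GPP1 were not measured on all 3 hybridizations.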

How the data were processed

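Per the labels, the authors normalized each scan by LOWESS on spots with a flag of 0 and deposited log2 ratios (base 2 assumed). Neither intensities nor a background correction are described in the sources used here. Signal over background is therefore unknown, and precision is limited by the number of arrays. The 6 scans hold 6912 spots, of which 5513 have a gene name. Names were updated through the R64 gene table for all but 5 spots, and no coordinates are given because no build is named. The scans of replicates 1, 2 and 3 held values for 6104, 4121 and 5100 spots (high power) and for 3871, 1737 and 2054 (low power).

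Both scans of a hybridization were averaged, then the spots of a gene. Genes with 3 values were fitted against 0 with limma 3.58.1 in R 4.3.3 (two-sided, Benjamini-Hochberg over 3642 genes, threshold 0.05). The procedure was tested on simulated data. An exact sign-flip test on 3 hybridizations cannot go below p = 0.25. The genes, lists and rules were chosen with earlier results of these data known. Named genes are the 9, in each list the 2 lowest by p, and the 5 nearest to GCY1. Further genes, marked as such in the text, were picked with their values known. Of 10 mating-type and sporulation genes 1 was measured on all 3 hybridizations, the alpha-cell receptor gene STE3 (-0.72 ± 0.51, adjusted p = 0.689 by limma), so ratios offer no check of cell type. Alternatives were single scans, other gene filters, centring, scaling, spot position (medians of runs of 144 spots), 1 spot a gene, moderation and left-out replicates.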

Additional observations from a re-analysis of the deposited data

How the results depend on the processing

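Between 9 and 11 alternatives gave a value for each of the 6 genes, and every mean moved by less than its SD. Leaving out 1 of 3 values cannot move a mean by as much as its SD, so those alternatives are no check. The filter for at least 2 hybridizations and the choice of 1 spot a gene could not change these means either. Signs held except for YPR1. The count of genes past the threshold was 2, against 4 over genes that both scans measured, 0 with trended and robust moderation (105 at an unadjusted p under 0.05, limma), and 0 to 12 with a replicate left out. It was 0 without replicate 1 (216 at an unadjusted p under 0.05), 1 without replicate 2 and 12 without replicate 3, and none of the 6 genes was called in any of these settings. The Hog1 pathway median was -0.11 over genes that both scans measured, where 2 of its genes were left. The median of its targets was 2.19 and that of NADH shuttles 0.15 in the low-power scan alone, with 1 gene left in each. The NADH shuttle median was 0.15 over genes that both scans measured, with 1 gene left, and -0.19 to 0.077 with a replicate left out. The median of other aldo-keto reductases was 0.86 over genes on at least 2 hybridizations, which adds 3 genes for 9 in all. No paired analysis was possible because each value is already a ratio within an array and there is a single group. GCY1 and DAK1 had no low-power value on replicate 3, and ARA1 and GPD2 no high-power value, so their means mix scans. The cause of the missing values was not tested.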
